A study of Mus musculus with 2 samples.

Results

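The circadian clock genes of mouse intestinal organoids (mIOs) were compared between a control culture and a culture treated with dextran sulfate sodium (DSS), a polysaccharide used to injure and inflame the intestinal epithelium. The group was set by name and held 10 genes, Arntl, Clock, Per1, Per2, Per3, Cry1, Cry2, Nr1d1, Nr1d2 and Dbp. All 10 were found among the 19294 genes of the deposited count table. With TMM scaling, which corrects for the composition of a library, none of the 10 genes reached a log2 ratio of 1 or -1 between DSS and control, while 39.5% of the 17235 genes with 10 or more counts in either library lay past one of these lines. Among the 8960 genes with 1000 or more counts in either library, as all 10 clock genes had, the share was 30.5%. Clock passed 1 with upper quartile factors and after centering on the median gene. Clock, Per1 and Cry2 were higher in the DSS library, Nr1d1 was slightly higher and Per2 and Per3 were lower. Arntl, Cry1, Nr1d2 and Dbp lay close to 0, and the sign of each of these 4 genes turned under another scaling of the libraries, Cry1 and Nr1d2 to below 0 with total counts and Arntl and Dbp to above 0 with upper quartile factors.

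The mRNA-seq data hold 2 libraries, 1 per condition, both labelled day 4. Both cultures were grown from jejunal crypts of Lgr5-EGFP-IRES-creERT2 mice, in Matrigel with EGF, Noggin and R-spondin. This genotype carries EGFP and a tamoxifen-inducible Cre at the Lgr5 locus, so both conditions share it. The treated culture received DSS for 4 days, at a concentration that is not given for the sequenced culture in the sources used here. The age of the animals and the hour at which the cultures were harvested are also not given.

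The mammalian clock is a feedback loop of transcription that runs in most cells, the intestinal epithelium included. ARNTL (also called BMAL1) and CLOCK form a dimer that binds E-boxes and activates the Per, Cry, Nr1d and Dbp genes. PER and CRY proteins then repress this dimer. The nuclear receptors REV-ERBα and REV-ERBβ, encoded by Nr1d1 and Nr1d2, repress Arntl through ROR response elements (ROREs), and DBP activates genes with D-boxes, Per genes among them. In a rhythmic tissue, Arntl mRNA is high when Nr1d1 and Dbp mRNA are low, so a value at a single time depends on the phase of the clock.

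Promoter sequences from RefSeq (build GRCm38.p6) were searched for these elements, since the members differed in direction between the libraries although they share regulators. The table held 13 windows of 300 bases, from 250 before to 50 after a start, for 9 of the 10 genes, and Per2 was without an entry. The E-box CACGTG, searched on both strands, was present in the windows of Per1 and Cry1 and in 7.15% of all 32851 windows. The D-box TTATGTAA was present in the window of Per3 and in 0.938% of all windows. The D-box TTACGTAA and the cAMP response element TGACGTCA (the latter added after the data were seen) were in none of the 13 windows, and in 0.119% and 1.79% of all windows. The RORE core AGGTCA was in a window of Arntl, Clock, Nr1d2 and Per1 each and in 16.3% of all windows. A match describes the letters in these short windows only, and known elements of the other genes can lie outside them.

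The stretches with E-boxes or D-boxes are printed because Per1, Cry1 and Per3 are the members with such an element in the windows. They run from base -220 to base -21 before the start, 5′ to 3′ on the strand of the gene, and capitals mark CACGTG in Per1 and Cry1 and TTATGTAA in Per3. The Per1 stretch is chr11:69098729-69098928 on the plus strand, the Cry1 stretch chr10:85185075-85185274 on the minus strand, and the Per3 stretch chr4:151044686-151044885 on the minus strand. None of them overlaps an annotated exon of its gene in GENCODE vM21.
Per1: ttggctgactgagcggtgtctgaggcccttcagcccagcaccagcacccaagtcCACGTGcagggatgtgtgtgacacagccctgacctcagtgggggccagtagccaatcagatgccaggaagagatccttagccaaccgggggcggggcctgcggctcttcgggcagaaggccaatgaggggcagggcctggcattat
Cry1: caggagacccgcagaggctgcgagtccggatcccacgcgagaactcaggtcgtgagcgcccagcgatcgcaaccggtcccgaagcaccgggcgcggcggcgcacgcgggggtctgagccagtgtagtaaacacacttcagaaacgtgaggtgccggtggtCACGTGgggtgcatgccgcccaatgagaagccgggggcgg
Per3: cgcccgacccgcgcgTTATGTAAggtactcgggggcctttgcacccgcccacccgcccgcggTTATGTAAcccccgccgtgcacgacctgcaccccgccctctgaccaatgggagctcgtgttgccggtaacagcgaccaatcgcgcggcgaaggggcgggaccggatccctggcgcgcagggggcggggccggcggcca
Per1 holds 1 E-box with its first base at -166, Cry1 holds 1 at -60, and Per3 holds 2 D-boxes at -205 and -158.

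The control library summed to 65493032 counts and the DSS library to 59746968. Levels are given in CPM, counts scaled to library size after TMM normalization, which assumes that most genes do not differ. With 1 library per condition there is no replicate check, no test was made, and each interval is an exact Clopper-Pearson 95% interval that covers counting error only. The 17235 genes with 10 or more counts in either library are the genes analysed, against which the clock genes were read. All 10 clock genes passed this minimum, with between 1043 and 6813 counts per library. This depth gave intervals that reached from 0.05 to 0.12 to each side of the log2 ratio, and variation between cultures is not part of them. The genes analysed had a median log2 ratio of -0.06 after TMM scaling, and scaling by totals alone moved this median, and every gene with it, by -0.26, to a median of -0.31.

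Markers of the intestinal cell types differed between the libraries. All 5 stem cell markers were lower in the DSS library, at a summed 966 CPM (control) and 191 CPM (DSS). Of 8 cell cycle genes, 7 were at -1 or below, beside 20.2% of all genes analysed, with summed levels of 1484 and 248 CPM. The 6 enterocyte markers were higher, with summed levels of 1798 and 16670 CPM, as were the 5 goblet cell markers at 703 and 11135 CPM and the 5 enteroendocrine markers at 751 and 3931 CPM. All 5 Paneth cell markers were lower, with summed levels of 843 and 317 CPM, and the 4 tuft cell markers together were at 8.87 and 4.39 CPM. Of 6 mesenchymal markers, 2 were listed, with a summed level of 0.447 and 0.567 CPM, and Col1a2, Col3a1, Dcn and Lum were not analysed here. The 3 immune markers analysed had a summed level of 14.0 and 24.2 CPM. The 3 endothelial and neural markers analysed had a summed level of 1.24 and 2.49 CPM. By RT-PCR, the study reported Lgr5 and Lyz as lower in DSS-treated mIOs, and Vil1, Muc2 and Chga as similar. In these libraries Lgr5 and Lyz1 were lower as well, but Vil1 had a log2 ratio of 1.25, Muc2 of 4.98 and Chga of 2.60. Whether the RT-PCR used the same cultures is not given in the sources used here. The part of these cell type differences in the clock gene values was not tested, and in bulk RNA fewer cells of a type and less RNA per cell cannot be told apart.

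The activators differed from each other. Clock, which encodes the partner of ARNTL in the activator dimer, had 4561 control counts and 6813 DSS counts, which was 63.7 and 125 CPM. Its log2 ratio was 0.97 (interval 0.91 to 1.02), the highest of the 10 genes, and 19.3% of all genes analysed had a log2 ratio of 1 or more. Its interval reached the line of 1, and the ratio lay past it with upper quartile factors, at 1.06, and after centering on the median of all genes, at 1.02.

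Arntl had 1377 control counts and 1043 DSS counts. After scaling, both levels were nearly identical, at 19.2 and 19.1 CPM. The log2 ratio was -0.012 (interval -0.13 to 0.10), with 0 inside the interval. With total counts the ratio was -0.27. The ratio of Clock to Arntl counts, which does not depend on the scaling of the libraries, was 3.31 (control) and 6.53 (DSS). This was a 1.97-fold difference, with an exact conditional interval from 1.80 to 2.16.

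Both activators have a paralog that can replace them in the dimer, Npas2 for Clock and Arntl2 for Arntl. Npas2 had 3926 control counts and 2060 DSS counts, a log2 ratio of -0.54 (interval -0.62 to -0.46). Arntl2 had 704 and 218 counts, a log2 ratio of -1.30 (interval -1.53 to -1.08), and 20.2% of all genes analysed were at -1 or below. With TMM factors both paralogs were therefore lower in the DSS library, while Clock was higher and Arntl was near 0. Clock made up 53.7% of the Clock and Npas2 counts in the control (exact interval 52.7% to 54.8%) and 76.8% in the DSS library (75.9% to 77.7%). Arntl made up 66.2% of the Arntl and Arntl2 counts in the control (64.1% to 68.2%) and 82.7% in the DSS library (80.5% to 84.8%). The shares within families were chosen after the counts were seen.

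**Figure D1:**
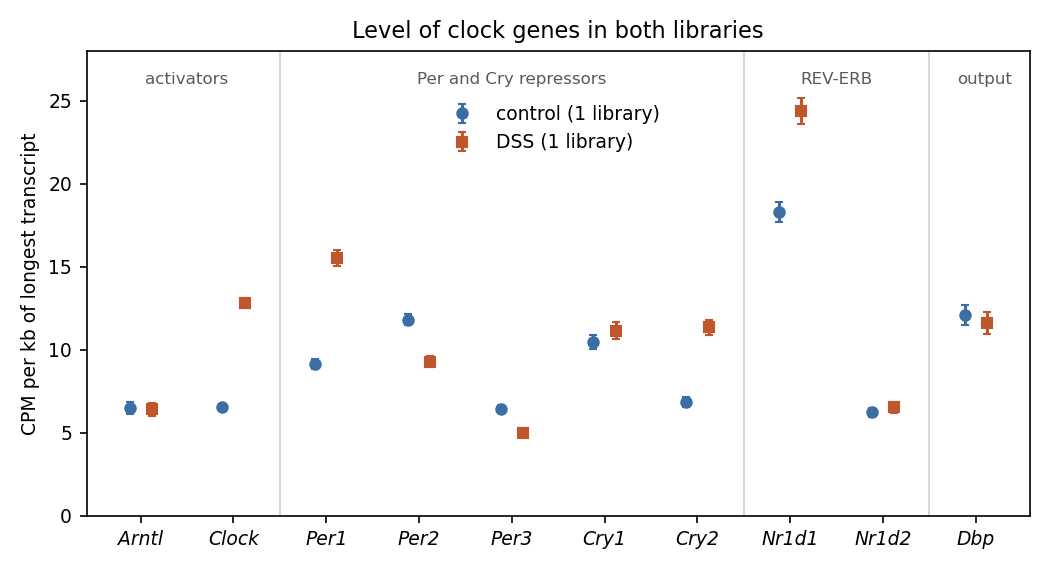
Level of each clock gene in CPM per kilobase of its longest annotated protein-coding transcript (vertical axis) in the control library (circles) and the DSS library (squares), with exact Poisson 95% intervals for counting error and 1 library per condition. Nr1d1 was the highest gene in both libraries, and Per1, Clock and Nr1d1 show the widest gaps, while the points of Arntl, Nr1d2 and Dbp overlap.

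The Per genes encode the period proteins, which repress the activators together with the cryptochromes, and they split by gene. Per1 had 3052 control counts and 3968 DSS counts, which was 42.6 and 72.6 CPM. Its log2 ratio was 0.77 (interval 0.70 to 0.84). Per2 had 4924 and 2953 counts, which was 68.8 and 54.0 CPM, and its log2 ratio was -0.35 (interval -0.42 to -0.28). Per3 was close to Per2, at 2754 and 1642 counts, 38.5 and 30.0 CPM and a log2 ratio of -0.36 (interval -0.45 to -0.27). Per1 was thus higher in the DSS library, and Per2 and Per3 were lower by nearly the same amount.

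The sum of the Per genes hid this split, as it had a log2 ratio of 0.063 (interval 0.022 to 0.10), which turned below 0 with total counts. Per1 made up 28.4% of the Per counts in the control (exact interval 27.6% to 29.3%) and 46.3% in the DSS library (45.3% to 47.4%). Per2 made up 45.9% in the control (44.9% to 46.8%) and 34.5% in the DSS library (33.5% to 35.5%), and Per3 made up 25.7% (24.8% to 26.5%) and 19.2% (18.3% to 20.0%). The leading Per gene by counts was therefore Per2 in the control and Per1 in the DSS library. The ratio of Per1 to Per2 counts was 0.620 (control) and 1.34 (DSS), a 2.17-fold difference (interval 2.03 to 2.32).

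The cryptochromes, which repress the activator dimer, also differed from each other. Cry2 had 1945 control counts and 2465 DSS counts, 27.2 and 45.1 CPM, for a log2 ratio of 0.73 (interval 0.64 to 0.82). Cry1 had 2262 and 1842 counts, 31.6 and 33.7 CPM, for a log2 ratio of 0.092 (interval 0.0027 to 0.18). The direction of Cry1 depended on the scaling, since it was -0.16 with total counts. Cry1 made up 53.8% of the Cry counts in the control (exact interval 52.2% to 55.3%) and 42.8% in the DSS library (41.3% to 44.3%). By counts, Cry1 thus led in the control and Cry2 in the DSS library. Per kilobase of the longest transcript, the DSS intervals of Cry2 at 11.3 and Cry1 at 11.1 CPM overlapped. By the median transcript length, Cry1 led in the DSS library too, at 21.0 CPM per kilobase beside 14.7 for Cry2. The ratio of Cry1 to Per2 counts was 0.459 and 0.624, a 1.36-fold difference (interval 1.26 to 1.47). The ratio of Cry1 to Cry2 counts was 1.16 (control) and 0.747 (DSS), a fold of 0.643 (interval 0.589 to 0.701).

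**Figure D2:**
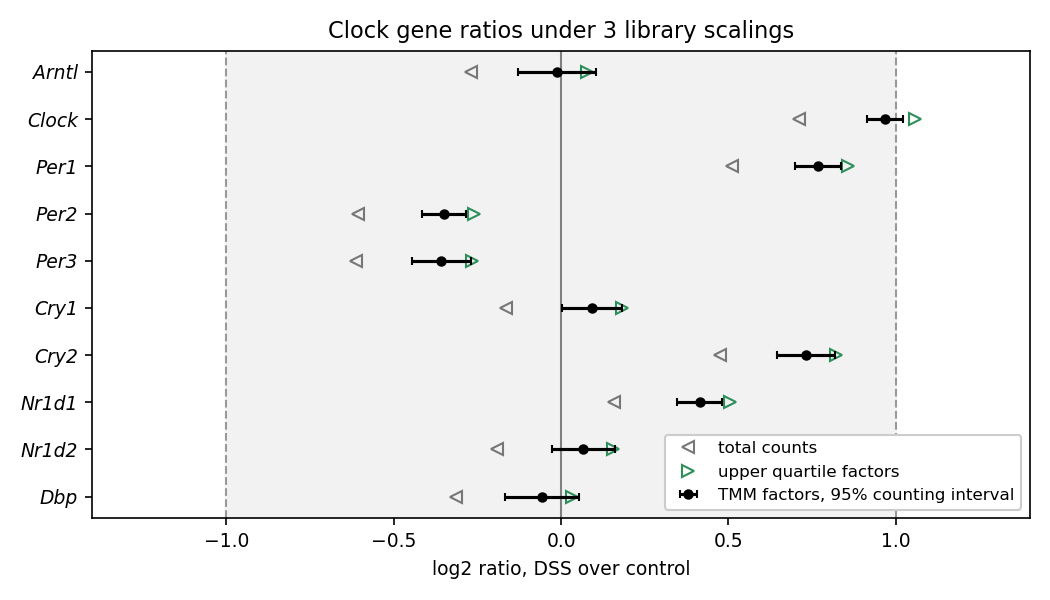
Log2 ratio of DSS over control for the 10 clock genes (horizontal axis) with TMM factors (filled points with 95% counting intervals), with total counts (left-pointing triangles) and with upper quartile factors (right-pointing triangles), with dashed lines at 1 and -1. With TMM factors all points lie between -0.36 and 0.97, Clock lies past 1 with upper quartile factors, at 1.06, and the order of the genes is the same under each scaling because a scaling moves all of them by one amount.

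The REV-ERB repressors are the arm that feeds back on Arntl. Nr1d1 had 3562 control counts and 3626 DSS counts, which was 49.8 and 66.3 CPM. Its log2 ratio was 0.41 (interval 0.35 to 0.48), and it was 0.16 with total counts. Nr1d2 had 2077 and 1661 counts, 29.0 and 30.4 CPM, and its log2 ratio of 0.066 had an interval from -0.028 to 0.16. Nr1d1 made up 63.2% of the counts of this pair in the control (exact interval 61.9% to 64.4%) and 68.6% in the DSS library (67.3% to 69.8%). The ratio of Nr1d1 to Nr1d2 counts was 1.71 and 2.18, a 1.27-fold difference (interval 1.17 to 1.38). Of the exon bases annotated for Nr1d1, 8.55% are shared with Thra on the opposite strand, and Thra, with 13254 and 11122 counts, had a log2 ratio of 0.14, which was -0.12 with total counts. Whether the counting used the strand of the reads is not given in the sources used here, so reads of Thra in the Nr1d1 counts cannot be told apart. Of the other members, Cry2 shares 4.67% of its exon bases with the antisense gene D930015M05Rik and Arntl 0.439% with Gm45355, neither of which was analysed here. Per3 lies on the same strand within Camta1, which had 726 and 442 counts, and shares no exon bases with it.

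Dbp, the output factor that binds D-boxes, had 1587 control counts and 1165 DSS counts. This was 22.2 and 21.3 CPM, and the log2 ratio of -0.057 had an interval from -0.17 to 0.053. Dbp shares 18.0% of its annotated exon bases with Sphk2 on the opposite strand, which had 3958 and 5182 counts and a log2 ratio of 0.78. As with Thra and Nr1d1, reads of Sphk2 in the Dbp counts cannot be told apart, nor in the shares and ratios built on them. Dbp made up 20.4% of the counts of the D-box activators Dbp, Tef and Hlf in the control (exact interval 19.5% to 21.3%) and 20.0% in the DSS library (19.0% to 21.0%), and these intervals overlap.

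Arntl was set against its repressor and against Dbp, because these genes are high at opposite phases of a running clock. The ratio of Arntl to Nr1d1 counts was 0.387 (control) and 0.288 (DSS), a fold of 0.744 (interval 0.677 to 0.817). The ratio of Arntl to Dbp counts was 0.868 and 0.895, a fold of 1.03 (interval 0.922 to 1.15), with 1 inside the interval. Nfil3, a repressor at D-boxes that is also high opposite to Dbp, had a ratio to Dbp of 0.698 (control) and 0.411 (DSS), a fold of 0.589 (interval 0.516 to 0.673). Arntl and Nfil3 therefore differed in their ratio to Dbp, the first within counting error of no difference and the second below it. Phase cannot be read from these values, since each condition was sampled at 1 time.

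**Figure D3:**
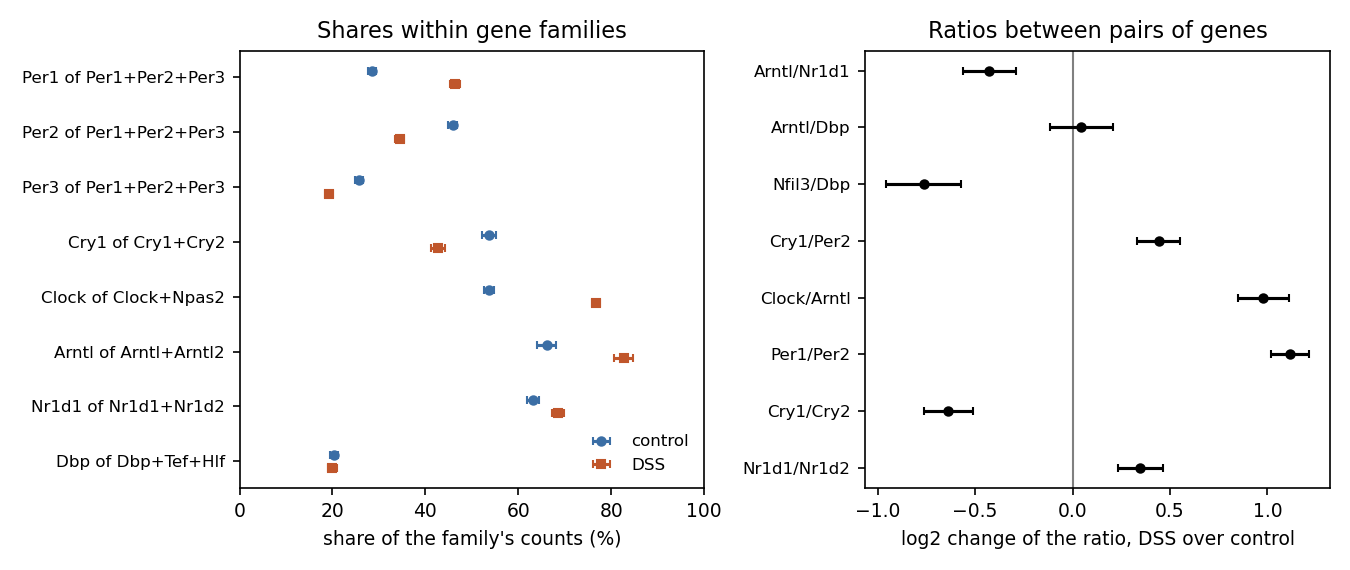
Left, share in percent of a gene's counts among the counts of its family in the control (circles) and DSS (squares) libraries, with exact 95% binomial intervals. Right, log2 difference between the libraries in the ratio of 2 genes, with exact conditional 95% intervals for counting error, in which Per1/Per2 at 1.12 and Clock/Arntl at 0.98 are the highest and Nfil3/Dbp at -0.76 is the lowest.

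Per kilobase of the longest annotated transcript, the levels of the clock genes lay within 2.94-fold of each other in the control and 4.87-fold in the DSS library. In the control, Nr1d1 was highest at 18.3 CPM per kilobase, although Cry1 led when the median transcript length was used. It was followed by Dbp at 12.1 and Per2 at 11.8, whose counting intervals overlap, then by Cry1 at 10.4 and Per1 at 9.13. Cry2 at 6.84, Clock at 6.54, Arntl at 6.46, Per3 at 6.41 and Nr1d2 at 6.22 CPM per kilobase formed the lower end, and each overlapped its neighbour in this order. In the DSS library, Nr1d1 at 24.4 CPM per kilobase was followed by Per1 at 15.5 and Clock at 12.8. Dbp at 11.6, Cry2 at 11.3 and Cry1 at 11.1 overlapped, Per2 was at 9.26, Nr1d2 at 6.52 and Arntl at 6.41 overlapped, and Per3 was lowest at 5.01. Clock and Per1 thus moved up in the order and Per2 moved down.

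With TMM factors, 6 of the 10 log2 ratios were above 0 and 4 below, and the interval was above 0 for 5, below 0 for 2 and included 0 for 3. With total counts 4 were above 0 and 6 below, and no interval included 0. With upper quartile factors 8 were above and 2 below, and only the intervals of Arntl and Dbp included 0. Over all genes analysed, the interval was above 0 for 38.7% and below 0 for 42.7%. The median log2 ratio of the clock genes was 0.079, beside -0.06 over all genes analysed. Of the clock genes, 7 of 10 lay within 0.5 of 0, beside 35.8% of all genes analysed, a share that was not computed for genes of like depth. With TMM factors, 40.9% of all genes analysed lay further from 0 than Clock. Among the 8960 genes with 1000 or more counts in either library, a minimum chosen after the data were seen that all 10 clock genes passed, 30.5% lay past 1 or -1. All 10 genes summed had a log2 ratio of 0.34 (interval 0.32 to 0.36), and Clock had the largest difference in CPM among them.

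**Figure D4:**
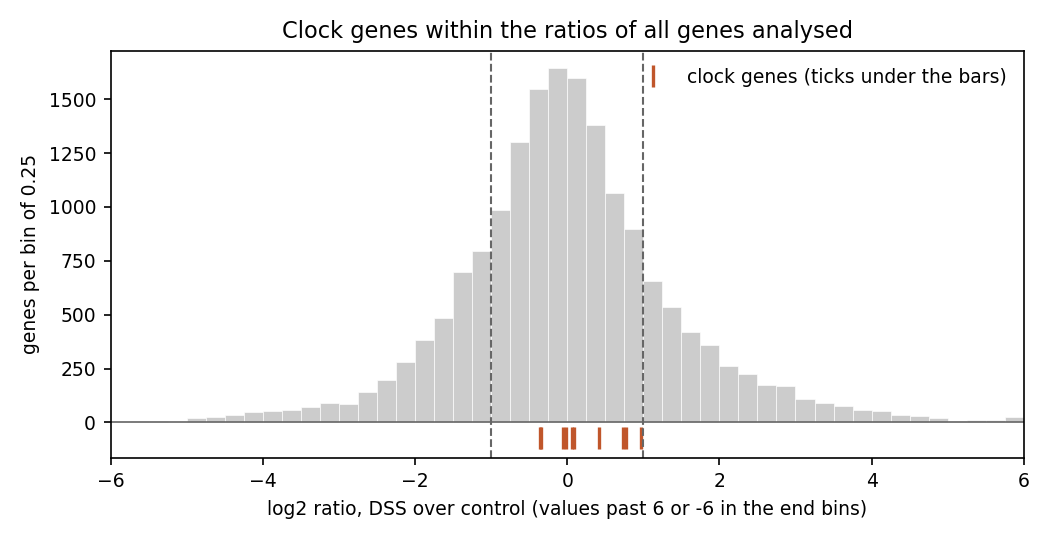
Number of genes analysed (vertical axis) per bin of 0.25 of the log2 ratio of DSS over control with TMM factors (horizontal axis), with the 10 clock genes as ticks under the bars and dashed lines at 1 and -1. The ticks lie between -0.36 and 0.97, inside both lines with this scaling (Clock was at 1.06 with upper quartile factors), while 19.3% of all genes lie at 1 or more and 20.2% at -1 or less.

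The genes that surround the core loop were read from 6 lists with 51 genes, of which 49 had 10 or more counts in either library. Of these, 4 were at 1 or more (8.16%, beside 19.3% of all genes analysed), 6 at -1 or below (12.2%, beside 20.2%) and 39 lay between. With total counts these were 3 and 8 genes, and with upper quartile factors 6 and 6. Their median was -0.032. In the ROR and D-box list of 6 genes, 2 were at 1 or more, and both were rare. Rora, an activator at ROREs, had 16 and 60 counts and a log2 ratio of 2.30 (interval 1.48 to 3.19), and Hlf, a D-box activator, had 51 and 140 counts and a ratio of 1.85 (interval 1.37 to 2.34). Nfil3 had 1107 and 479 counts, for a ratio of -0.82 (interval -0.98 to -0.66).

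Of the 3 other E-box repressors, Bhlhe40 (DEC1) had 15941 control counts and 6874 DSS counts, a log2 ratio of -0.83 (interval -0.87 to -0.78). Ciart, which represses the activator dimer, had 654 and 336 counts and a ratio of -0.57. None of the 3 was past the lines with TMM factors, and Bhlhe40 lay past -1 with total counts. Both named repressors were lower, as were Per2 and Per3, which act on the same dimer, while Per1 and Cry2 were higher and Cry1 was near 0, with a sign that turned with total counts.

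A list of 17 genes held kinases, phosphatases and ubiquitin pathway genes that set the stability of clock proteins. Of these, 1 was at 1 or more and 1 at -1 or less with TMM factors, beside 19.3% and 20.2% of all genes analysed. Their median was -0.13. Csnk1e, one of the casein kinase genes of this list and a kinase of PER proteins, had 3659 and 1281 counts and a log2 ratio of -1.13. Fbxl21, a ligase for cryptochromes, had 32 and 55 counts and a ratio of 1.17 (interval 0.52 to 1.85), and it lay below 1 with total counts. Csnk2a2, a catalytic subunit of casein kinase 2, was at -0.54. Of the 15 cofactors, 4 were at -1 or less and none at 1 or more with TMM factors, beside the same shares of all genes. The lowest were Timeless, with 1741 and 49 counts and a log2 ratio of -4.76, and Tipin, with 1943 and 139 counts and a ratio of -3.42, which together act at the replication fork. Wdr5, a subunit of histone methyltransferase complexes, was at -1.38. These values stood beside the cell cycle list, whose median was -4.14, with Mcm5 at -4.70, Foxm1 at -4.61 and Ccna2 at -4.56, and the part of the lower cell cycle genes in them was not tested.

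Of 11 clock-controlled output genes, 9 were listed, with a median of 0.71, and 2 of them, Hlf and Tsc22d3, were at 1 or more, a share near the 19.3% of all genes analysed. Tsc22d3, an anti-inflammatory factor also known as GILZ, had 3027 and 7369 counts and a log2 ratio of 1.67, and Por, the reductase that serves cytochrome P450 enzymes, was at 0.98 with 16078 and 24209 counts. Avp and Prok2, outputs of the brain clock, were not analysed here.

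Per1 is also known as a direct target of the glucocorticoid receptor and of CREB, through which signals from outside reach the clock. All 9 glucocorticoid-responsive genes of the list had log2 ratios above 0 with TMM factors and 8 with total counts. The medians of all genes analysed were -0.06 and -0.31 under these scalings, so most genes lay below 0 under either. The intervals of Fkbp5, at 0.065 (interval -0.061 to 0.19), and of Zbtb16, with 9 and 13 counts, included 0. The intervals of the other genes of this list lay above 0 with TMM factors, beside 38.7% of all genes analysed. Of the 9, 4 were at 1 or more, beside 19.3% of all genes analysed, and their median was 0.96. Dusp1, a phosphatase of MAP kinases, had 2039 and 14984 counts and a ratio of 3.27, and Sgk1, a kinase that regulates ion transport, had 316 and 1994 counts and a ratio of 3.05. Tsc22d3, given above, belongs to this list as well. All 8 CREB-responsive and immediate early genes were above 0 with TMM factors and 7 with total counts, beside the same medians of all genes analysed. Of these 8, 4 were at 1 or more, 3 with total counts, beside 19.3% and 15.4% of all genes analysed, and their median was 0.996. Atf3 was at 2.68, Klf4 at 1.47 and Nr4a1 at 1.32. Per1 at 0.77 lay below the median of either list, and Per2 lay below every gene of both. Many of these genes answer to stress as well, and the inputs were not measured.

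**Figure D5:**
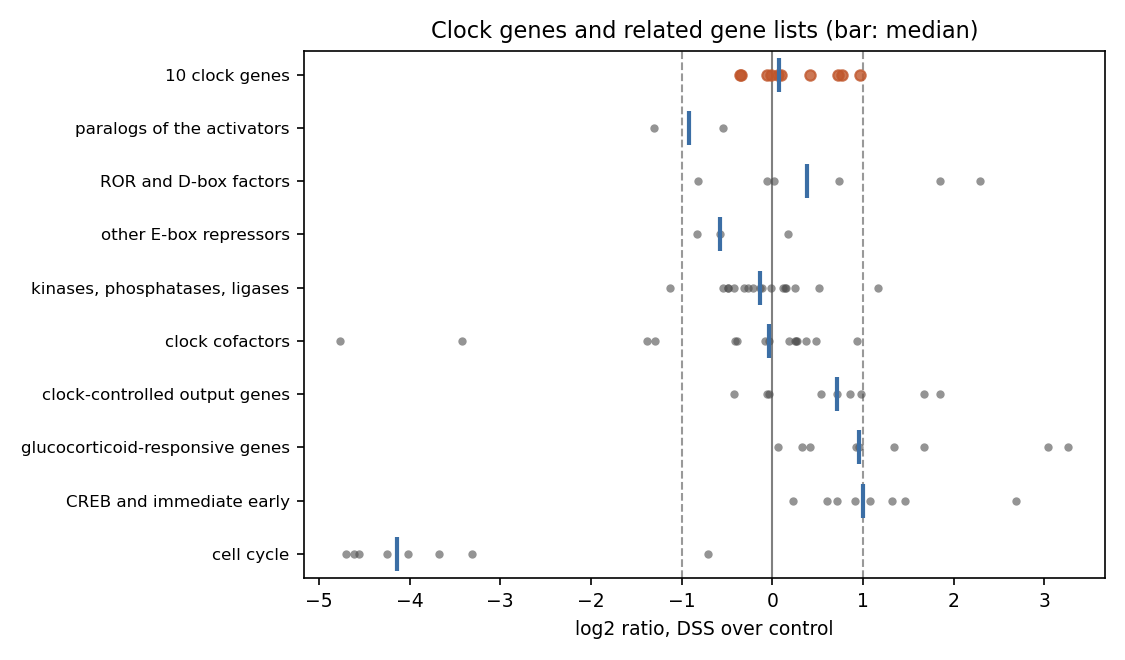
Log2 ratio of DSS over control (horizontal axis) for the 10 clock genes (top row) and for the genes of 9 related lists (1 row each, points are genes, blue bars are medians), with dashed lines at 1 and -1. The clock genes span -0.36 to 0.97, the cofactors reach down to Timeless at -4.76, and the glucocorticoid-responsive genes reach up to Dusp1 at 3.27.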

How the data were processed

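The series holds mRNA-seq of 1 control mIO culture and 1 culture under DSS. The authors deposited unnormalized read counts for each gene, made from stranded mRNA libraries. HISAT2 and StringTie are named in the submitters' processing notes, without versions, and the genome build and the counting step are not given in the sources used here. The per-sample files, although called FPKM, repeat these counts for all 19294 genes and were not used.

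Counts were scaled with TMM factors (1.09 for control, 0.915 for DSS) from edgeR 4.0.16 in R 4.3.3. Log2 ratios have exact Clopper-Pearson 95% intervals, computed with scipy 1.17.1 in Python 3.11.15. Library totals were 65493032 and 59746968 counts, and intervals cover counting error only. No test was possible with 1 library per condition. The computation was tested on simulated counts with 200 changed genes, equally many up and down. This cannot check the TMM scaling for libraries like these, in which 39.5% of the genes analysed lay past 1 or -1. Transcript lengths and exon overlaps came from GENCODE vM21 (GRCm38), and 94.0% of the RefSeq accessions in the count table were in the GRCm38.p6 annotation.

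The members and gene lists were chosen with earlier results of these data known. Genes named were all members, overlapping genes, the markers of the study's RT-PCR, and 3 genes per list. These 3 were the furthest from a log2 ratio of 0 among genes with 50 or more counts in either library. As alternatives, scaling used upper quartile factors, totals, the median gene or the size factors of DESeq2 1.42.0, the control library was thinned, 2 was added to each count, and the count minimum, the line and the transcript length were changed.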

Additional observations from a re-analysis of the deposited data

How the results depend on the processing

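The number of clock genes at a log2 ratio of 1 or more was 0 with TMM factors and 1 (Clock) with upper quartile factors and after centering on the median of all genes. It remained 0 under the other alternatives, and no clock gene was at -1 or less under any of them. The median of the 10 genes was -0.18 with total counts, beside 0.079 with TMM factors, and Cry1 was at -0.16 there. This scaling lowers every gene by the same amount, so the differences between clock genes and the shares within families are the same under it. Of all genes analysed, 15.4% lay at 1 or above and 26.2% at -1 or below with total counts, and 21.2% and 18.3% did so with upper quartile factors. By the median transcript length, Cry1 was the highest gene per kilobase in the control and Nr1d1 was at rank 2. No paired analysis was possible because each condition has 1 library, and for the same reason no replicate could be left out. With 1043 or more counts per gene and library, depth limits these ratios little, but variation between cultures was not measured.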
